A study of Rattus norvegicus with 20 samples.

Results

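The oxidative phosphorylation (OXPHOS) subunit genes encode the protein parts of the mitochondrial respiratory chain and of ATP synthase. They were taken from the array annotation by symbol, as every gene named Nduf with a subunit letter and number, Sdha to Sdhd, Uqcr, Cyc1, Cox4 to Cox8 or Atp5 whose probe set carries 1 symbol, and the probe set of highest mean log2 signal over all arrays was kept for each gene. This gave 80 of the 14217 genes that the array names with 1 symbol: 35 of complex I, 4 of complex II, 8 of complex III, 17 of complex IV and 16 of complex V. All 80 passed the filter on low signal. The symbol rule also took in Cox6c-ps1, a pseudogene by its name, and Atp5if1, which encodes an inhibitor of ATP synthase and not a subunit. It also took in Cox7a2l, which encodes an assembly factor of respiratory supercomplexes. Ndufa4 is counted with complex I by its symbol, although its protein is now assigned to complex IV.

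Male Wistar rats, an outbred strain, gave blood RNA that was hybridised to 20 Affymetrix whole-genome rat arrays, with 1 array for each blood sample. The groups, with 5 arrays each, were resistant rats predose (R) and postdose (RA) and susceptible rats predose (S) and postdose (SA), where postdose means 24 h after 1 oral dose of 1200 mg/kg acetaminophen (APAP), an analgesic that injures the liver at high doses. Resistant and susceptible rats were the lowest and the highest in serum ALT, a marker of liver cell damage, among the dosed rats of 1 set, so the sub-groups are the ends of 1 distribution and not separate strains. The labels give the retro-orbital plexus as the bleeding site of all samples, whereas the methods give the inferior vena cava for postdose blood. The rats recovered for 1 week after the predose bleeding and were fasted for 12 h before the dose. Arrays of vehicle-treated rats are not among the samples, so APAP, fasting, day and site of bleeding cannot be told apart in any postdose change. No source gives the rats' age. Red cells were lysed before RNA extraction. In such mixed blood RNA, fewer cells of a type and less RNA per cell cannot be told apart. By the methods each array held the RNA of 1 rat, and the same rats gave predose and postdose blood, but no source says that equal replicate numbers mark the same rat.

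As background, complex I (NADH dehydrogenase) and complex II (succinate dehydrogenase) feed electrons to ubiquinone, complex III passes them to cytochrome c, and complex IV (cytochrome c oxidase) hands them to oxygen. Complexes I, III and IV pump protons as they do so, and complex V, the ATP synthase, uses the returning protons to make ATP. Most subunits are encoded in the nucleus and imported, while the core of all complexes but II is completed by subunits that mitochondrial DNA encodes. In the liver, a reactive metabolite of APAP binds to mitochondrial proteins, which is a known early event of its toxicity. Of the cells in blood, lymphocytes, monocytes and platelets rely on respiration, and neutrophils mostly on glycolysis.

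The promoters of the 3 members that passed a test below are shown, since they are the genes whose change the results turn on. Each line gives the 250 bases before the start of the gene in RefSeq (build GRCr8), 5′ to 3′ on the gene's strand, with matches to CCGGAAG on either strand in capitals.
Ndufs1 (chr9:72073606-72073855, minus strand): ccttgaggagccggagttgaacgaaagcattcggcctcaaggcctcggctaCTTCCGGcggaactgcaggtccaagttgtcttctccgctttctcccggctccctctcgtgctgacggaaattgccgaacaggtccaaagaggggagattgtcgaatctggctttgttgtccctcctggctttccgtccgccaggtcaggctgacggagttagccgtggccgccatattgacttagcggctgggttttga
Ndufs4 (chr2:47794915-47795164, minus strand): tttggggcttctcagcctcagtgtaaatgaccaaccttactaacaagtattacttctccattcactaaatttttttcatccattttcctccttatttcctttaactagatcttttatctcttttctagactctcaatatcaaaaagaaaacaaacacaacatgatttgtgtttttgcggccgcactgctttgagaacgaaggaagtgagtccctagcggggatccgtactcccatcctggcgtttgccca
Uqcrfs1 (chr17:34186352-34186601, plus strand): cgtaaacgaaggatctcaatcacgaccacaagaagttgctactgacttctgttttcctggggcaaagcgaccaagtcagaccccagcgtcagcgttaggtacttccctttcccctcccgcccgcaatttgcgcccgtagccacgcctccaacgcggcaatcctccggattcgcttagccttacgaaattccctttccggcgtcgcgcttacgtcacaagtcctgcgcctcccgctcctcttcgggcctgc

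CCGGAAG is a core site of ETS factors such as GABP, a known activator of OXPHOS genes, and in Ndufs1 it lies on the opposite strand from base -199 to base -193 before the start. The sequence AAGATGGC, a core site of the factor YY1, was found in Ndufs4 just past the start, from base 5 to base 12 and therefore outside the bases shown.

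RefSeq windows from 250 bases before to 50 bases after the start were matched for 71 of the 80 members, and for 27457 genes in all, members included. CCGGAAG was present on either strand in 20 of the 71 member windows (28.2%) and in 9.22% of all windows. AAGATGGC was present in 15 (21.1%) and in 3.44%. The palindrome that the factor NRF1 binds, GCGC followed by AT and GCGC, was present in 3 (4.23%) against 0.93%. With any 2 bases between the GCGC blocks, which includes the former, it was present in 14 (19.7%) against 6.15%. The general elements TATAAA and CCAAT were no more frequent in members than elsewhere, at 11.3% against 14.3% and 35.2% against 37.7%. The member windows were also richer in G and C, with a median of 56.0% against 52.3%, and held a median of 20 CG pairs against 7. The part of base composition in the motif shares was not tested.

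Of the 80 members, 73 had a mean log2 signal of 12.15 to 17.79, on a scale where the median of each array is 1000. These are called the bright members below. The other 7 had a mean of 5.55 to 10.14 and were all of complex IV, among them the muscle isoforms Cox6a2, Cox7a1 and Cox8b, the lung isoform Cox4i2 and the testis isoforms Cox6b2 and Cox7b2. The bright members varied little between rats. Their SD within a group had a median of 0.18 on the log2 scale, from 0.10 for Cox6a1, a complex IV subunit, to 0.32 for Ndufs8, an iron-sulfur subunit of complex I, and the median over all 5446 probe sets with a mean log2 signal of 13 or more was also 0.18. Much of this spread was shared by the members of an array.

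The median deviation of the 73 bright members from their own means over 20 arrays was -0.29 on array R5, -0.33 on RA4 and 0.27 on SA4. On the other 17 arrays it lay between -0.09 and 0.21. On RA4, 0 of the 73 members lay above their own mean. On R5 it was 3 of 73, and on SA4 72 of 73. R2, with 69 of 73, and R1, with 67 of 73 and a median deviation of 0.21, came near to SA4. The gap of R5, RA4 and SA4 to the nearest array was 0.56, 0.59 and 0.49 of the range of its group. None of them reached the outlier limit of 0.71. Over the 2628 pairs of bright members, the median Pearson correlation across the 20 arrays was 0.62, which is given as a description, since the pairs share arrays and scaling. The members that followed the others least were Cox5a, Ndufs1 and Ndufb11. Their correlation to the median of the other members was -0.01, 0.09 and 0.17. For Cox5a this holds only for the member probe set, with a mean log2 signal of 12.15. A brighter probe set of Cox5a, with a mean of 17.39, also carries another symbol and is not a member. Its correlation to the members was not tested.

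**Figure D1:**
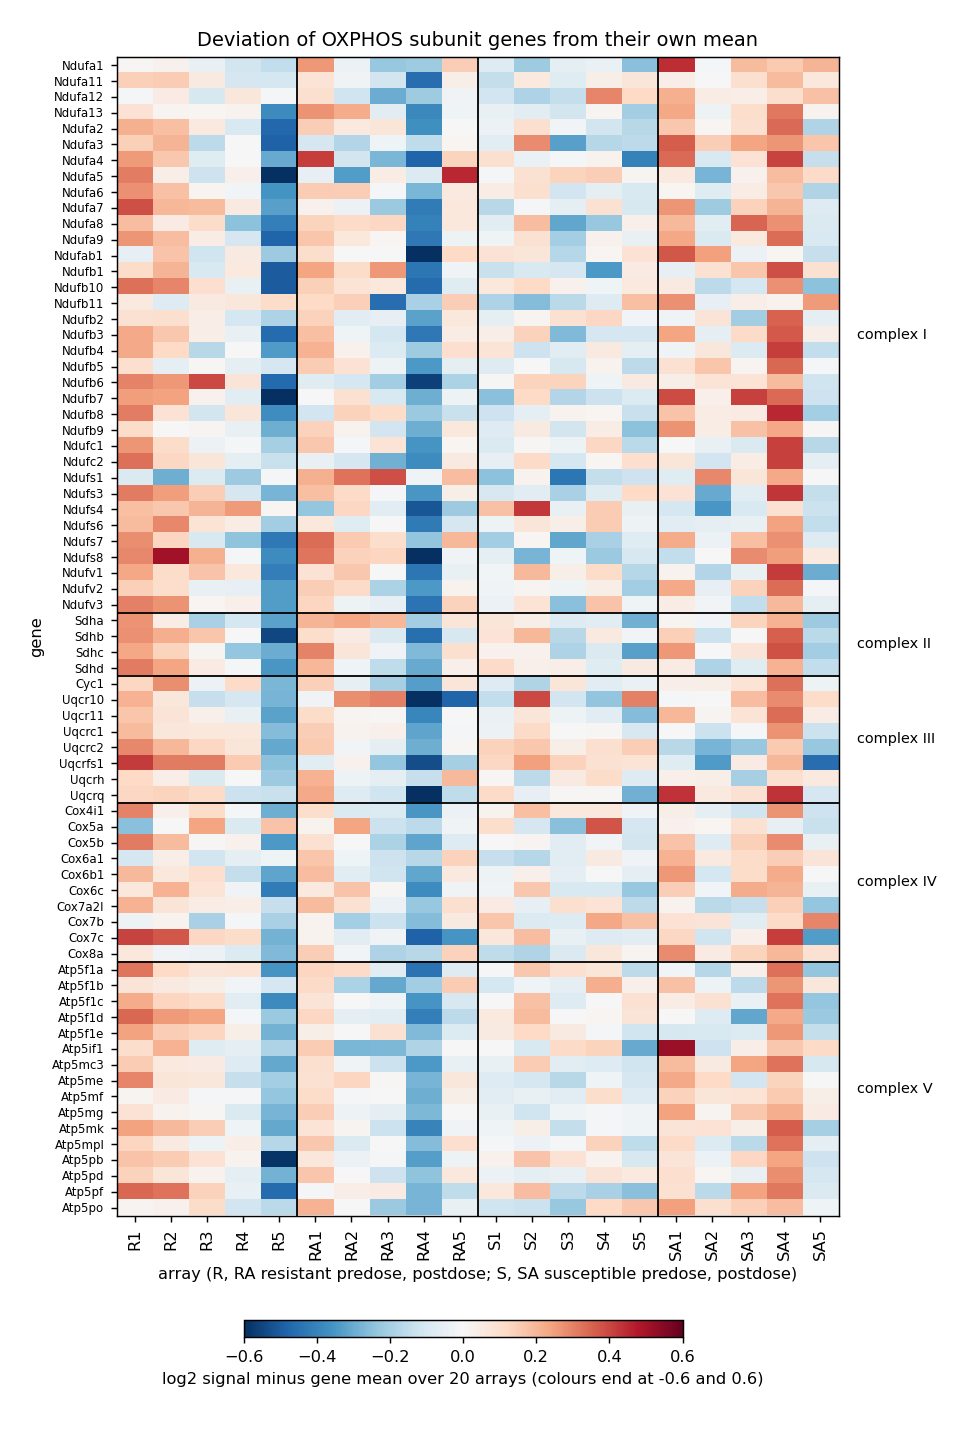
Deviation of the log2 signal of each bright member (rows, 73 genes by complex) from its mean over 20 arrays (columns, by group), with red above and blue below the mean. The columns of R5 and RA4 are blue and that of SA4 is red in nearly every row. R1 and R2 are also red in most rows, and no group of 5 arrays has 1 colour.

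The same arrays deviated in the same direction for other abundant genes, but did not stand apart in every list. On RA4, the median deviation was -0.33 for 33 proteasome subunit genes, -0.34 for the genes of mitochondrial ribosomal proteins, -0.16 for 42 genes of cytosolic ribosomal proteins and -0.22 for all probe sets with a mean log2 signal of 13 or more. On SA4, the same lists deviated by 0.21, 0.30, 0.23 and 0.15, and on R5 by -0.21, -0.20, -0.20 and -0.12. For the cytosolic ribosomal proteins, RA3 lay lower than RA4 and R5, at -0.21, and RA1, at 0.23, was level with SA4. For all probe sets with a mean log2 signal of 13 or more, S5 was near R5, at -0.11. After quantile normalization, which gives every array the same distribution of values, the median deviation of the OXPHOS members ranged from -0.12 to 0.15 over the arrays, and its SD fell from 0.14 to 0.07. The median correlation between members was then 0.27. Group means of the members' deviation were 0.01 ± 0.19 for R, -0.02 ± 0.04 for S, -0.05 ± 0.17 for RA and 0.06 ± 0.13 for SA (SD, n = 5), so all groups overlapped. Because of these arrays, the median over all members in each comparison is given also without R5, RA4 and SA4 where they enter it, whereas medians by complex are over all arrays.

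**Figure D2:**
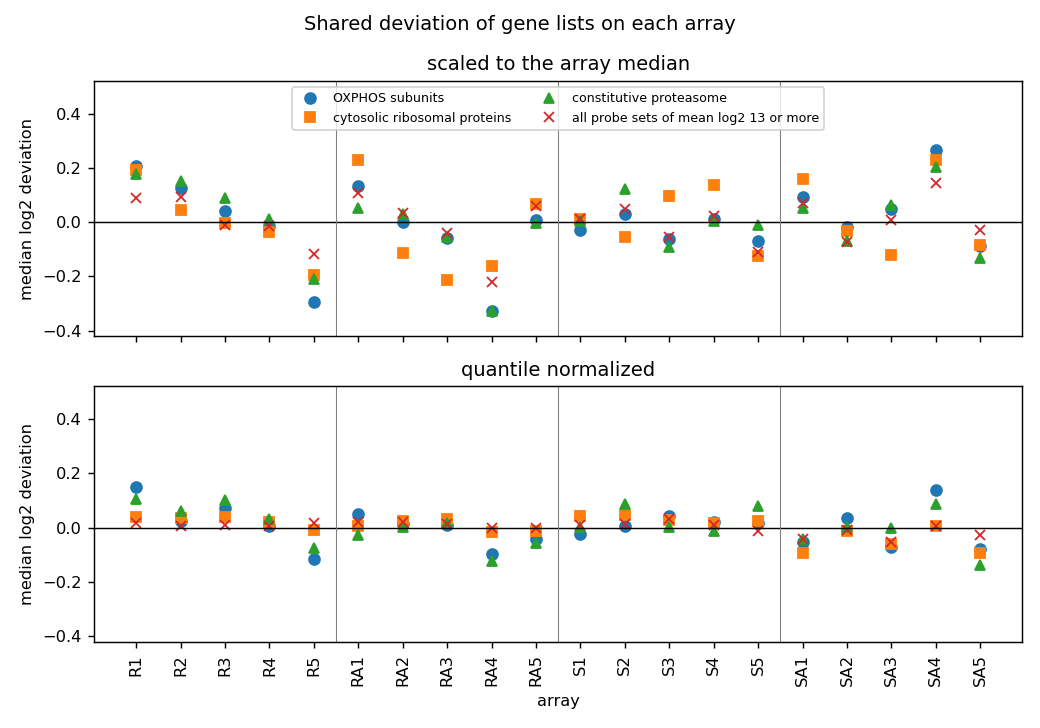
Median log2 deviation from the mean over 20 arrays (vertical axis) of 4 gene lists on each array (horizontal axis), with values scaled to the array median above and quantile normalized below. OXPHOS members reach -0.33 on RA4 and 0.27 on SA4 when scaled, the other lists lie on the same side of 0 there, and the range narrows to -0.12 to 0.15 after quantile normalization.

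Markers of the blood cell types were present, and some of them differed between predose and postdose arrays in both sub-groups. Averaged over both sub-groups, 8 of 9 natural killer cell markers and 4 of 8 neutrophil markers were higher postdose and none lower, and 5 of 5 B cell markers were lower (limma adjusted p under 0.05). Of all probe sets, 6.28% were higher and 6% lower in this comparison. The summed signal of the neutrophil markers was 497472 to 712915 on predose and 822859 to 1223622 on postdose arrays, and that of the B cell markers 102941 to 164409 on predose and 82083 to 113424 on postdose arrays. Of the neutrophil markers only Lcn2 was at the level of the negative controls, and none of the natural killer cell and B cell markers was. Of 12 T cell markers, 1 was higher and 2 were lower, and of 9 monocyte markers 2 were higher and 1 was lower. Of 7 platelet markers 0 passed, of 6 erythroid markers 1 was lower, and of 9 liver markers 1 was higher, with Apoa1, Tat, Fga and Fgb at the level of the controls. The summed signal of the liver markers was 18145 to 36758 in R, 28358 to 43176 in RA, 24731 to 34529 in S and 41470 to 113514 in SA, so that all SA arrays lay above all S arrays. That of the natural killer cell markers was 203724 to 330836 on predose and 356827 to 602550 on postdose arrays. RNA integrity was read from actin, whose 3′ probe set exceeded its 5′ probe set by a log2 signal of 0.80 ± 0.03 in R, 0.87 ± 0.05 in S, 0.76 ± 0.10 in RA and 0.79 ± 0.10 in SA (SD, n = 5). For GAPDH the same excess was 0.175 ± 0.02 in R, 0.182 ± 0.03 in S, 0.181 ± 0.03 in RA and 0.175 ± 0.04 in SA (SD, n = 5). The part of cell composition and RNA quality in the values below was not tested.

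Before dosing, no OXPHOS subunit gene passed the test between rats that turned out susceptible and those that turned out resistant. Of the 80 members, 0 passed the limma test (adjusted p under 0.05, S against R), where 0.00329% of the 30416 probe sets tested passed, 1 in all. At an unadjusted p under 0.05, 1 member was lower in S and 0 higher, against 3.74% of all probe sets, and the methods' t-test, adjusted, called 0. No member had R and S arrays that did not overlap, against 0.529% of all probe sets. The median difference was -0.03 on the log2 scale, with 20 members above and 60 below 0, where 45.5% of all probe sets were above 0, beside a median of -0.02 over all probe sets. Without R5, it was -0.11, with 8 members above 0. After quantile normalization it was -0.01, with 36 members above and 44 below 0. For 71 of the 73 bright members, the 95% confidence interval of the difference lay within a 1.5-fold change in either direction.

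The 3 members of smallest p predose were Cox7b2, Ndufs8 and Cox7b, a complex IV subunit that is present in most tissues. Cox7b2 had log2 signals of 8.44, 8.51, 8.36, 8.43 and 8.55 on R and of 6.36, 6.54, 8.68, 7.99 and 7.78 on S arrays. The R arrays lie close together just above the highest negative control of 8.12, and 4 of 5 S arrays lie below it (difference -0.99, standard error 0.42, limma adjusted p = 0.9998). Ndufs8 had 13.76, 13.98, 13.69, 13.46 and 13.09 on R and 13.42, 13.19, 13.45, 13.25 and 13.37 on S arrays (difference -0.26, standard error 0.16, limma adjusted p = 0.9998). Without R5, its lowest R array, the difference was -0.39, and it still did not pass. Cox7b differed by 0.17 (standard error 0.11, limma adjusted p = 0.9998).

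In resistant rats, signals postdose were close to those predose in all complexes. For RA against R, 0 of 80 members passed the limma test, where 5.11% of 30747 probe sets did. At an unadjusted p under 0.05, 1 member was higher and 4 were lower, against 17.1% of all probe sets in either direction, and the methods' t-test, adjusted, called 0. No member had groups that did not overlap, against 6.76% of all probe sets. The median change was -0.05, with 21 members above and 59 below 0, where 49.1% of all probe sets were above 0, beside a median of -0.01 over all probe sets and -0.03 over those with a mean log2 signal of 13 or more. Without R5 and RA4, it was likewise -0.05. By complex, the medians were -0.04 for I, -0.02 for II, -0.09 for III, -0.02 for IV and -0.07 for V. The interval lay within 1.5-fold for 68 of the 73 bright members.

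In susceptible rats, most members lay slightly above their predose level, but none passed. For SA against S, 0 of 80 members passed the limma test, where 6.66% of 30747 probe sets did. At an unadjusted p under 0.05, 5 members were higher and 2 lower, against 19% of all probe sets in either direction, and the methods' t-test, adjusted, called 0. The median change was 0.11, with 60 members above and 20 below 0, where 51.3% of all probe sets were above 0, beside 0.01 over all probe sets and 0.05 over those with a mean log2 signal of 13 or more. Without SA4 it was 0.06, with 46 above 0. After quantile normalization it was 0.01, with 42 above 0. By complex, the medians were 0.12 for I, 0.05 for II, 0.05 for III, 0.12 for IV and 0.08 for V. The interval lay within 1.5-fold for 70 of the 73 bright members.

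The member of smallest p in susceptible rats was Ndufa1, which encodes a small membrane subunit needed to assemble complex I. Its log2 signals were 17.71, 17.58, 17.73, 17.75 and 17.54 on S and 18.23, 17.78, 17.98, 17.94 and 17.99 on SA arrays. All SA arrays lay above all S arrays, with a change of 0.32 (95% interval 0.10 to 0.55, limma adjusted p = 0.0881), against 0.04 in resistant rats. Over the 21 alternatives described below, the change of Ndufa1 was 0.16 to 0.38, and it passed under 1 of them. The S and SA arrays also did not overlap for Cox6a1 (0.19, limma adjusted p = 0.227) and Atp5mg, the gene of the g subunit of ATP synthase (0.18, limma adjusted p = 0.309). These 3 of 80 members stand beside 3.93% of all probe sets whose SA arrays lay above all S arrays. Ndufa3, another accessory subunit of complex I, changed by 0.32 (limma adjusted p = 0.162) and Cox8a by 0.22 (limma adjusted p = 0.214), neither past the threshold.

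**Figure D3:**
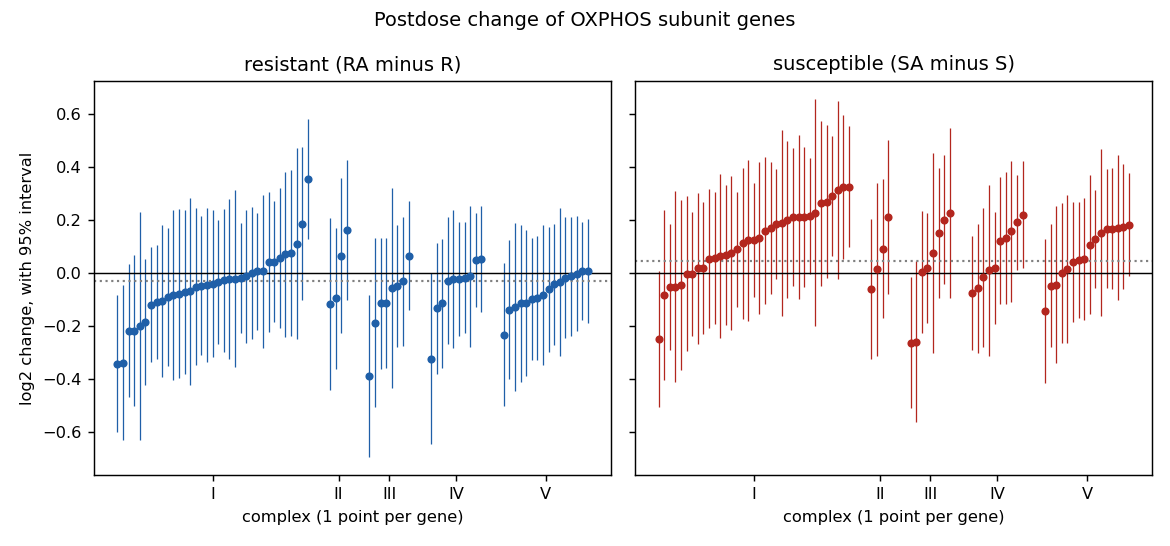
Log2 change postdose against predose (vertical axis) of the bright members, ordered by size within each complex (horizontal axis), in resistant (left) and susceptible (right) rats. Points are limma estimates, lines 95% intervals, and the dotted line is the median change of all probe sets with a mean log2 signal of 13 or more (-0.03 and 0.05); most intervals cross 0 in both panels.

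With both sub-groups averaged, which gives the most precise estimate, 3 members passed and they did not share a direction. Ndufs1 rose and Ndufs4 and Uqcrfs1 fell, so 1 of 80 members was higher and 2 were lower, where 12.3% of 30747 probe sets passed, 6.28% higher and 6% lower. At an unadjusted p under 0.05, 3 members were higher and 3 lower, against 23.9% of all probe sets. The median over members was 0.02, with 48 above and 32 below 0, where 50.9% of all probe sets were above 0, and -0.02 after quantile normalization, with 31 above 0. Without R5, RA4 and SA4, 40 members were above and 40 below 0. The interval lay within 1.5-fold for all 73 bright members in this comparison.

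Ndufs1 encodes the largest subunit of complex I, which holds iron-sulfur clusters of the electron input arm. Its log2 signals were 12.80, 12.59, 12.80, 12.67 and 12.87 on R and 13.10, 13.21, 13.27, 12.86 and 13.07 on RA arrays. In susceptible rats they were 12.64, 12.91, 12.45, 12.74 and 12.76 on S and 12.81, 13.18, 12.96, 13.11 and 12.89 on SA arrays. The postdose arrays lay higher in both sub-groups, and in each sub-group the lowest postdose arrays overlapped the highest predose array. The averaged change was 0.32 (standard error 0.08, 95% interval 0.16 to 0.48, limma adjusted p = 0.00864), a 1.25-fold rise. The change was 0.35 in resistant (limma adjusted p = 0.0713) and 0.29 in susceptible rats (limma adjusted p = 0.134), and the difference between these was -0.06 (limma adjusted p = 0.973). Ndufs1 passed in the averaged change whichever array was left out, with an adjusted p of 0.00432 to 0.0192.

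Ndufs4 encodes an accessory subunit of the same arm, whose loss in mice causes a Leigh-like brain disease. Its log2 signals were 12.90, 12.88, 12.92, 12.98 and 12.73 on R and 12.49, 12.84, 12.66, 12.21 and 12.50 on RA arrays. They were 12.89, 13.15, 12.68, 12.87 and 12.68 on S and 12.61, 12.37, 12.63, 12.81 and 12.59 on SA arrays. In resistant rats only RA2 reached the range of the R arrays, and in susceptible rats only SA4 reached that of the S arrays. The averaged change was -0.30 (standard error 0.09, 95% interval -0.48 to -0.11, limma adjusted p = 0.0306), with -0.34 in resistant (limma adjusted p = 0.130) and -0.25 in susceptible rats (limma adjusted p = 0.282). With 1 array left out, it passed in 12 of 20 cases, with an adjusted p of 0.0152 to 0.0577. It did not pass without R3, R4, RA1, RA4, RA5, S1, S2 or SA2. Ndufs1 and Ndufs4, which sit in 1 arm of complex I, thus moved in opposite directions. The 8 members of that arm had averaged changes of -0.30 to 0.32, with 4 above and 4 below 0.

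Uqcrfs1 encodes the Rieske iron-sulfur protein, the subunit of complex III that passes electrons on to cytochrome c1. Its log2 signals were 16.64, 16.53, 16.53, 16.38 and 15.98 on R and 16.16, 16.25, 15.99, 15.69 and 16.03 on RA arrays. They were 16.35, 16.47, 16.36, 16.32 and 16.31 on S and 16.15, 15.88, 16.27, 16.42 and 15.77 on SA arrays. R5 lay among the RA arrays and SA4 among the S arrays, and on these arrays nearly all bright members stood apart. The averaged change was -0.33 (standard error 0.10, 95% interval -0.54 to -0.11, limma adjusted p = 0.0449), with -0.39 in resistant (limma adjusted p = 0.148) and -0.26 in susceptible rats (limma adjusted p = 0.358). With 1 array left out, it passed in 4 of 20 cases, without R5, RA2, SA3 or SA4, with an adjusted p of 0.0113 to 0.0842 over all cases. Without R5, RA4 and SA4 together it was -0.38 (limma adjusted p = 0.00483), and after quantile normalization -0.41 (limma adjusted p = 0.00151).

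**Figure D4:**
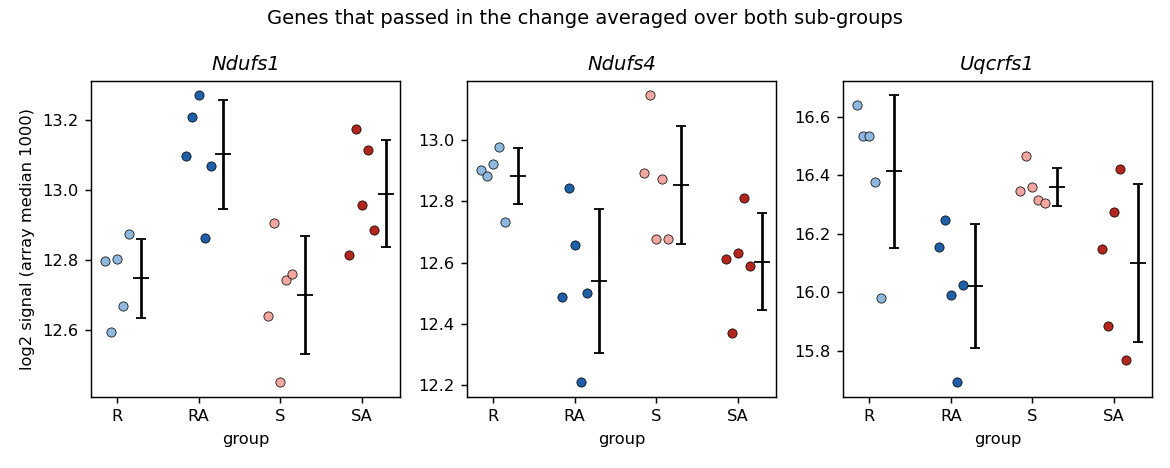
Log2 signal (vertical axis, array median at 1000) of Ndufs1, Ndufs4 and Uqcrfs1 on each array, with the mean and SD of 5 arrays beside the points, for R, RA, S and SA (horizontal axis). Ndufs1 lies higher in RA and SA than in R and S, and Ndufs4 and Uqcrfs1 lie lower.

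The call of other members depended on the arrays that stood apart and on the scaling. Without R5, RA4 and SA4, 5 members fell in the averaged change: besides Ndufs4 and Uqcrfs1 these were Uqcrc2, a core protein of complex III (-0.24, limma adjusted p = 0.00902), Ndufb6, an accessory subunit of complex I (-0.22, limma adjusted p = 0.0290), and Atp5f1d, the delta subunit of ATP synthase (-0.23, limma adjusted p = 0.0444). Uqcrc2 and Atp5f1d also passed after quantile normalization, at -0.25 and -0.23, and Ndufs7, an iron-sulfur subunit of complex I, passed there at 0.21. On all arrays as scaled, Uqcrc2 was at -0.19 (limma adjusted p = 0.166), Atp5f1d at -0.19 (limma adjusted p = 0.213) and Ndufb6 at -0.17 (limma adjusted p = 0.317). A second probe set of Uqcrc2 gave -0.26 (limma adjusted p = 0.261), with the same sign. Both core proteins of complex III are on the array, and the other, Uqcrc1, was at -0.02.

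In complex II, Sdhd, the membrane anchor, had an averaged change of -0.08 and its partner Sdhc one of 0.14, and 0 of 4 members passed. In complex III, Uqcrh, the hinge protein beside cytochrome c1, was at 0.04, with a range over the 20 arrays of 16.62 to 17.05. In complex IV, Cox6c was at 0.07 and Cox7c at -0.16, the latter with -0.33 in resistant rats (limma adjusted p = 0.286) and 0.01 in susceptible rats. In complex V, Atp5pb, the b subunit of the stalk, was at -0.01, Atp5f1b, the catalytic beta subunit, at -0.02, and Atp5mc3, 1 of the genes of the proton-carrying c subunit, at 0.06. The 95% interval of Atp5f1b reached from -0.19 to 0.14.

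The difference in change between sub-groups did not pass for any member. For the difference in change, susceptible minus resistant, 0 of 80 members passed the limma test, and so did 0% of 30747 probe sets. At an unadjusted p under 0.05, 1 member was lower and 0 higher, against 6.9% of all probe sets. The estimates nevertheless leaned 1 way: 70 members were above and 10 below 0, where 52.2% of all probe sets were above 0, with a median of 0.14 beside 0.02 over all probe sets and 0.06 over those with a mean log2 signal of 13 or more, and 16 of 16 complex V members were above 0. Other abundant genes leaned the same way, with 3425 of the 5446 probe sets of mean log2 signal 13 or more above 0. So were 55 of 73 genes of mitochondrial and 33 of 42 of cytosolic ribosomal proteins, and 24 of 33 proteasome subunit genes. Of the genes of the tricarboxylic acid cycle and pyruvate dehydrogenase, 7 of 14 were above 0. Without R5, RA4 and SA4 the median of the members was 0.09, with 59 above 0, and after quantile normalization 0.01, with 43 above 0. The precision is lowest here, with an interval within 1.5-fold for 51 of the 73 bright members. The members of smallest p were Cox6b2 (-2.29, limma adjusted p = 0.700), Ndufa3 (0.35, limma adjusted p = 0.753) and Uqcrq, a small subunit of complex III (0.41, limma adjusted p = 0.753).

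Between susceptible and resistant rats postdose, likewise no member passed. For SA against RA, 0 of 80 members passed the limma test, where 0.143% of 30747 probe sets did. At an unadjusted p under 0.05, 3 members were higher and 1 lower in SA, against 9.18% of all probe sets in either direction, and the methods' t-test, adjusted, called 0. The median was 0.13, with 69 members above and 11 below 0, where 49.6% of all probe sets were above 0. It was -0.00 over all probe sets and 0.04 over those with a mean log2 signal of 13 or more, with 3251 of these 5446 above 0. Of the genes of cytosolic ribosomal proteins 36 of 42 were above 0, of the proteasome subunit genes 26 of 33, and of the genes of mitochondrial ribosomal proteins 43 of 73. Without RA4 and SA4, the members' median was -0.01, with 39 above and 41 below 0. These are the lowest RA and the highest SA array for the members, so a fall follows from the choice. After quantile normalization the members' median was 0.01, with 42 above 0. With the values as deposited it was 0.09, with 60 above 0, and with any single array left out it lay between 0.04 and 0.16. The member of smallest p was Ndufa3, at 14.40, 14.33, 14.48, 14.35 and 14.52 on RA and 14.87, 14.66, 14.74, 14.77 and 14.67 on SA arrays. Its SA arrays all lay above its RA arrays (0.32, 95% interval 0.05 to 0.60, limma adjusted p = 0.427), the only member for which this held, 1 of 80 against 1.56% of all probe sets. Without the 3 arrays it was 0.30 (limma adjusted p = 0.329). Uqcrq (0.35, limma adjusted p = 0.487) and Ndufa12 (0.23, limma adjusted p = 0.508) followed, and Uqcrq was at 0.15 without the 3 arrays.

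Complex IV has isoforms that are used in particular tissues, and the array holds several pairs. The members Cox4i1, Cox6a1, Cox6b1 and Cox8a, which most tissues use, were bright on every array. Their averaged changes were -0.09, 0.12, 0.04 and 0.14, and none passed. The tissue isoforms were near the bacterial trp probe sets, which have no target in rat RNA and whose highest log2 signal on any array was 8.12. Cox6a2 was at or below that level on 19 of 20 arrays, Cox4i2 on 14, Cox8b on 12, Cox7b2 on 10, Cox6b2 on 7 and Cox7a1 on 5, and Cox6c-ps1 on 0. The median half-width of the 95% interval in the change of a sub-group was 1.38 for the 7 members of low signal and 0.26 for the bright members.

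Cox6b2 had the largest estimates of all members in the susceptible rats. Its log2 signals were 8.64, 9.04, 9.04, 9.03 and 7.58 on S and 5.30, 6.77, 8.83, 6.26 and 8.01 on SA arrays, and it was at 8.66 ± 0.78 in RA and 7.99 ± 1.70 in R (SD, n = 5). The S and SA arrays overlapped (change -1.63, standard error 0.74, limma adjusted p = 0.233), and 4 of 5 SA arrays were below the highest control. Cox7a1 had an averaged change of 0.66 (standard error 0.46, limma adjusted p = 0.433), from 8.04 ± 1.59 in R to 8.82 ± 0.93 in RA and from 8.59 ± 0.61 in S to 9.14 ± 0.93 in SA. Cox4i2 was at 6.59 ± 1.34 in RA and 7.98 ± 1.10 in SA, Cox6a2 at 6.19 ± 1.51 and 4.82 ± 1.11, and Cox8b at 8.23 ± 1.39 and 7.62 ± 1.41, all with overlapping arrays. Of 9 markers of skeletal and heart muscle on the array, 5 were at or below the control level, among them Myh7 and Mb, and of 6 sperm markers 4 were. Of the muscle markers 1 was lower and of the sperm markers 1 higher in the averaged change, where 6% of all probe sets were lower and 6.28% higher.

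**Figure D5:**
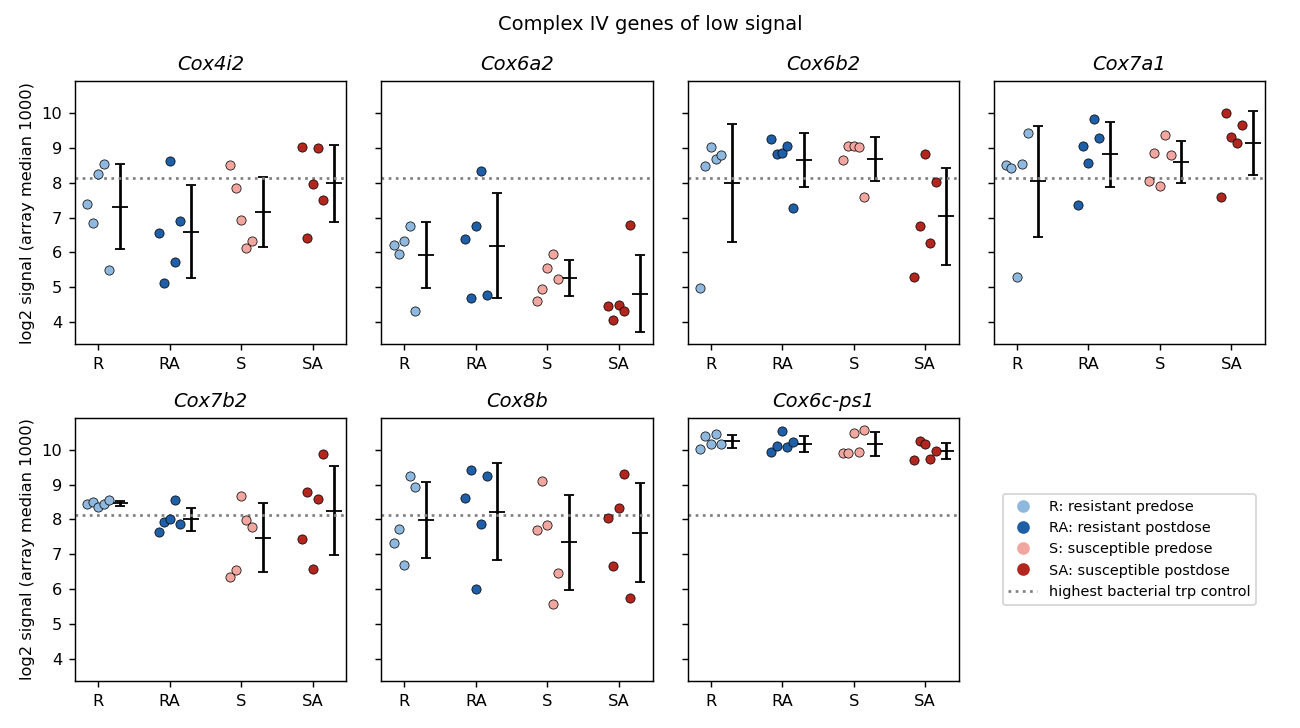
Log2 signal (vertical axis, array median at 1000) of the 7 complex IV members of low signal on each array, with the mean and SD of 5 arrays beside the points, by group (horizontal axis); the dotted line is the highest signal of the bacterial trp controls, 8.12. Points of all genes but Cox6c-ps1 scatter across that line.

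Further probe sets of OXPHOS genes gave no call. The 80 genes have 89 probe sets with 1 symbol, and 0 of the other 9 passed in any comparison. Another 7 probe sets carry the symbol of a member family beside that of a paralog or pseudogene, so their signal cannot be given to 1 gene. These are Atp5mc1, Atp5mc2, Cox5a, Cox7a2, Ndufa10, Ndufs5 and Uqcrb, and 0 of them passed. In susceptible rats, the probe set of Atp5mc1, which encodes the c subunit, changed by 0.28 (limma adjusted p = 0.257), and that of Cox7a2, the common counterpart of Cox7a1, by 0.21 (limma adjusted p = 0.224). The probe set of Ndufa10 was at -0.24 in the averaged change (limma adjusted p = 0.169).

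Of the subunits encoded in mitochondrial DNA, the array names COX1 and COX2, both of complex IV. They changed by -0.02 and 0.02 in resistant and by 0.11 and 0.08 in susceptible rats, and 0 of 2 passed in any comparison. Fuel oxidation and exchange with the cytosol gave no call either. Of 14 genes of the tricarboxylic acid cycle and pyruvate dehydrogenase, which supply NADH and succinate, 0 passed in any comparison, where 12.3% of all probe sets were called in the averaged change. Pdha1, a subunit of pyruvate dehydrogenase, was at -0.21 in the averaged change (limma adjusted p = 0.104), and Cs, citrate synthase, at -0.06. Of 9 genes of mitochondrial carriers, pores, cytochrome c and coupling, among them the member Atp5if1, 0 passed, and Slc25a5, which exchanges ADP for ATP, was at -0.10 (limma adjusted p = 0.521).

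Of 29 assembly factors of complexes II to V, 1 rose and 1 fell in resistant rats, where 5.11% of all probe sets were called. In susceptible rats 1 rose and 2 fell, where 6.66% of all probe sets were called. Of 12 assembly factors of complex I, 0 passed in resistant and 1 in susceptible rats. No subunit gene passed in either sub-group. Sco1, which helps to deliver copper to complex IV, had log2 signals of 12.90, 12.88, 13.06, 13.11 and 12.95 on R and 12.23, 12.12, 12.10, 12.19 and 12.37 on RA arrays, and of 12.95, 12.87, 12.72, 13.07 and 12.68 on S and 12.08, 12.40, 12.38, 12.43 and 12.23 on SA arrays. All postdose arrays lay below all predose arrays. Sco1 changed by -0.78 in resistant (limma adjusted p = 1.98e-04) and by -0.56 in susceptible rats (limma adjusted p = 0.00242). Sdhaf3, a factor for the iron-sulfur subunit of complex II, had signals of 10.45, 10.69, 10.22, 10.48 and 10.71 on R and 11.90, 11.47, 11.15, 11.13 and 11.33 on RA arrays, and of 10.36, 10.56, 10.49, 10.54 and 10.01 on S and 11.32, 11.46, 11.19, 11.80 and 11.35 on SA arrays. It rose on all postdose arrays, by 0.89 in resistant (limma adjusted p = 0.00294) and by 1.03 in susceptible rats (limma adjusted p = 8.16e-04). Sdhaf1, which acts on the same subunit, went the other way, with -0.59 in susceptible (limma adjusted p = 0.0177) and -0.39 in resistant rats (limma adjusted p = 0.142).

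In the averaged change, 4 of 29 assembly factors of complexes II to V rose and 3 fell, where 6.28% of all probe sets were called higher and 6% lower. Those that rose were Sdhaf3, Sdhaf4 (0.36), Atpaf1, a factor for the catalytic head of ATP synthase (0.29), and Sdhaf2, which attaches the flavin cofactor to Sdha (0.27). Those that fell were Sco1, Sdhaf1 and Cox16, a factor for complex IV (-0.29). Against the same shares, of 12 assembly factors of complex I, Foxred1 rose (0.28, limma adjusted p = 0.0233) and Ndufaf4 fell (-0.23, limma adjusted p = 0.0473). Foxred1 was at 10.66 ± 0.20 in S and 11.20 ± 0.14 in SA, a change of 0.54 (limma adjusted p = 0.00577), and at 10.91 ± 0.15 in R and 10.93 ± 0.10 in RA (SD, n = 5). No probe set passed for the difference between the changes, so this change is not shown to differ between sub-groups. The 4 subunits of complex II had averaged changes of -0.08 to 0.14.

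Of 15 regulators of mitochondrial gene expression, 1 passed in any comparison, in susceptible rats, where 6.66% of all probe sets were called. This was Esrra, a nuclear receptor that binds promoters of OXPHOS genes, at 11.20 ± 0.16 in S and 11.995 ± 0.327 in SA (change 0.79, limma adjusted p = 0.0299) and at 11.54 ± 0.31 in R and 11.58 ± 0.47 in RA (SD, n = 5). No probe set passed for the difference in change, so the change of Esrra is not shown to differ between sub-groups. Yy1 had an averaged change of 0.11 and Tfam, which activates and packs mitochondrial DNA, one of -0.14, and neither passed. Of 73 genes of mitochondrial ribosomal proteins, 3 rose and 3 fell in the averaged change, where 12.3% of all probe sets were called. Mrps6 rose by 1.14 (limma adjusted p = 7.22e-06), Mrpl49 by 0.43 and Mrpl41 by 0.24, while Mrps30 changed by -0.41, Mrps15 by -0.35 and Mrps31 by -0.35. Of 18 genes of protein import, Timm8b rose (0.26) and Tomm20, a receptor of the outer membrane, fell (-0.29), with 12.3% of all probe sets called in that comparison. Of 15 genes of glycolysis, 1 passed in susceptible rats, where 6.66% of all probe sets were called. This was Hk2, which encodes hexokinase 2, from 8.72 ± 1.02 to 10.44 ± 0.37 (change 1.72, limma adjusted p = 0.00579). In resistant rats it was at 9.70 ± 0.26 and 9.69 ± 0.27. On S2 Hk2 was at 6.93 and on the other S arrays at 8.99 to 9.49. Its change, too, is not shown to differ between sub-groups.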

How the data were processed

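RNA from the blood of the 4 groups was hybridised to 1 single-colour array per sample. The authors deposited intensity values, 1 per probe set. Per their methods these were normalized to a median of 1000, whereas the medians of the deposited arrays were near 200, so each array was scaled here to a median of 1000 and log2 was taken. The 57 control probe sets were left out, which gave 31042 probe sets, of which 20826 carry 1 gene symbol, 436 several and 9780 none. Probe sets with a signal under 100 on all arrays of a comparison were not tested.

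Differences were tested with lmFit and eBayes of limma 3.58.1 in R 4.3.3 over all probe sets, with Benjamini-Hochberg adjustment and a threshold of 0.05. The predose comparison used 10 arrays and the others all 20, with 1 estimate of the spread. Errors are standard errors and 95% intervals, and the number of arrays, 5 per group, limits the precision. The methods' t-test was run on the same values, as was that test with their fold limit of 2, which called 0 members in each comparison of a pair of groups. The code was tested on simulated data. Figures were drawn with matplotlib 3.10.9.

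The members and gene lists were chosen with earlier results of these data known. Genes were named where they passed, or as the 3 of smallest p where none did, with the member of highest signal and of largest change in each complex, the tissue isoforms, and, in related lists, the genes that passed or had the highest signal. Other genes named, such as Ndufb6, Cox7c, Atp5f1b, Uqcrc1, Cox8a and Atp5mg, were chosen after their values were seen. Alternatives were quantile normalization, values as deposited, other filters, other choices of probe set or of arrays in the fit, a replicate block, and leaving out each array. Leaving out R5, RA4 and SA4 together was chosen after seeing the data, by the deviation of the members that were then compared.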

Additional observations from a re-analysis of the deposited data

Results flagged for a closer look

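A sample far from the other 4 of its group was found in 14 cases among the members named in the text (log2 signal, with that of the nearest array of the group). Of the complex IV genes of low signal, Cox6b2 was at 4.97 on R1 (nearest 8.47), 7.58 on S5 (8.64) and 7.29 on RA5 (8.83), Cox7a1 at 5.29 on R3 (8.41) and Cox6a2 at 6.78 on SA5 (4.49). On the arrays that stood apart, Atp5pb was at 16.21 on R5 (16.82) and 16.46 on RA4 (16.76), Uqcrc1 at 14.41 on R5 (14.74), Ndufs8 at 12.51 on RA4 (13.45), Ndufb6 at 13.38 on RA4 (13.74) and Uqcrc2 at 15.81 on SA4 (15.48). On other arrays, Atp5mc3 was at 16.27 on S2 (16.07), Ndufa4 at 15.32 on S5 (15.68) and Uqcrh at 16.64 on SA3 (16.87). Chance gives about 1 such case in 20 groups. Over all members 26 of 320 groups held one (8.12%), and of the 21 among bright members, 7 were on RA4, 5 on R5 and 4 on SA4.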

How the results depend on the processing

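Before dosing, postdose and for the difference in change, 0 members passed in either direction under all 21, 21 and 28 alternatives run, and no direction reversed for the results compared. After quantile normalization 1 member was higher and 2 were lower in resistant rats, 2 were lower in susceptible rats, and 2 were higher and 4 lower in the averaged change. Requiring signal on more arrays gave 1 higher member in resistant rats (Ndufs1) and 1 in susceptible rats (Ndufa1), and testing 1 probe set per gene gave 1 in resistant rats (Ndufs1). Without R5, RA4 and SA4, 1 member was higher and 1 lower in resistant rats, 1 lower in susceptible rats and 5 lower in the averaged change. The cause was not tested. With 1 array left out, the number of higher members was 0 to 1 and of lower members 0 to 2 in resistant rats. The single higher call there came without RA4 and the 2 lower calls without R5. In the averaged change it was 1 higher and 0 to 4 lower, with 4 without R5 and 0 without any 1 of R3, R4, RA1, RA4, RA5, S1, S2 and SA2.

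Same-numbered arrays of a sub-group did not deviate together (correlation of -0.03 to 0.05), so the numbers were not taken to pair the rats. In a fit that used a replicate block for equal numbers, 0 members were lower in the averaged change, with a limma adjusted p of 0.102 for Ndufs4 and 0.0754 for Uqcrfs1, and Ndufs1 alone passed (limma adjusted p = 0.0240).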
